A study of Mus musculus with 8 samples.

Results

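The collagen genes of mouse are those whose symbol is Col, a chain type number, the letter a and a chain number. This rule on the symbol alone picked 44 of the 24346 genes measured, and the rule holds no expression value. Collagens are the main structural proteins of connective tissue. Each molecule is a trimer of alpha chains that wind around each other, and a chain can do so wherever its sequence repeats the Gly-X-Y triplet, in which glycine fits the crowded centre of the helix. Fibrillar chains assemble into the tensile fibrils of the gut wall, type IV chains form the sheet of basement membranes, type VI chains form beaded microfibrils, and FACIT chains (fibril-associated collagens with interrupted helices) coat fibrils made by others. In the intestine, fibroblasts are the main source of the fibrillar chains.

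RNA came from stromal cells of the whole large intestine of mice aged 12 weeks, sorted by flow cytometry as living podoplanin-positive cells that lacked CD45, CD31 and EpCAM. The 4 WT mice carried floxed Il10ra alleles (Il10ra ff) and no Cre, and the 4 cKO mice carried the same alleles with Pdgfra-cre, which acts where Pdgfra is active. Il10ra codes for the receptor chain that binds interleukin-10, and the title of the series is about this receptor in fibroblasts, intestinal pathology and type I interferon signalling. Levels are FPKM, which divide the fragments of a gene by transcript length and by library size, so that genes of different length can be set side by side. Groups are given as mean ± SD over 4 libraries, and values listed by library run from replicate 1 to replicate 4.

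Il10ra itself was listed at 0.842, 0.665, 0.614 and 0.403 FPKM in WT and at 0.439, 0.273, 0.633 and 0.636 FPKM in cKO. The sources used here do not name the floxed exon, so a value over the whole gene does not check the deletion. Relative depth, read from the steps between low FPKM values (69.4% to 76.4% of which lay on whole steps), was 0.868 to 1.095 of that of WT 1, and 15815 to 16323 genes were above 0. The sorted cells carried the fibroblast genes Pdgfra (157 to 161 FPKM in WT, 126 to 167 in cKO) and Dcn (6691 to 7360 and 6710 to 7345 FPKM). RNA of other cells was uneven. In cKO 1 the epithelial markers Krt8, Car1 and Guca2a, at 160, 152 and 289 FPKM, were above Pdgfra (126 FPKM). The summed level of 18 epithelial markers was 73.1 to 153 FPKM in WT, 1153 in cKO 1, 575 in cKO 2, 152 in cKO 3 and 57.3 in cKO 4.

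The repeat that defines the family is visible in the coding sequence. The stretches below are the first 63 bases of the longest unbroken Gly-X-Y run of Col1a1 and of the most abundant fibrillar, basement membrane, beaded and FACIT chain, from GENCODE transcripts on GRCm38, with the glycine codons in capitals. They are shown because the classes differ in how far this pattern runs.
Col3a1: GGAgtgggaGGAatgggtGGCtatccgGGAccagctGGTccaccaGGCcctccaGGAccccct
Col1a1: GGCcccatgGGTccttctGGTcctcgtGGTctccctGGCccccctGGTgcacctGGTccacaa
Col4a1: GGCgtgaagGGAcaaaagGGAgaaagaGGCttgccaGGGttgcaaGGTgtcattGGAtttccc
Col6a1: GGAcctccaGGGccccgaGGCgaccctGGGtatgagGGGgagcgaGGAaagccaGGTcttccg
Col14a1: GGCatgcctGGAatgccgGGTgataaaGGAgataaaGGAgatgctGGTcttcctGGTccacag
In each stretch a glycine codon opens every triplet. In Col3a1 (chromosome 1, 45311538 to 45349706, plus strand) the run began at codon 164 and went on for 344 triplets. It went on for 338 triplets from codon 168 in Col1a1 (chromosome 11, 94936224 to 94953042, plus strand). The run of Col6a1 (chromosome 10, 76708792 to 76726168, minus strand) had 87 triplets. Col4a1 (chromosome 8, 11198423 to 11312826, minus strand) broke off after 40 triplets, and Col14a1 (chromosome 15, 55307750 to 55520803, plus strand) after 32.

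Across all 44 genes, the fibrillar class stood apart by the length of this run and not by the share of the protein in repeats. The 11 fibrillar chains had longest runs of 216 to 344 triplets (median 338), and Col24a1 and Col27a1 were the short ones. The 6 type IV chains had longest runs of 39 to 66 triplets, but 74.9% to 78.8% of their residues lay in Gly-X-Y runs of at least 4 triplets, against 53.5% to 77.2% for fibrillar chains. Type VI chains are mostly other domains, with 12.2% to 31.9% of residues in such runs. FACIT chains ranged widest, from 8.1% in Col12a1 to 85.6%.

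**Figure D1:**
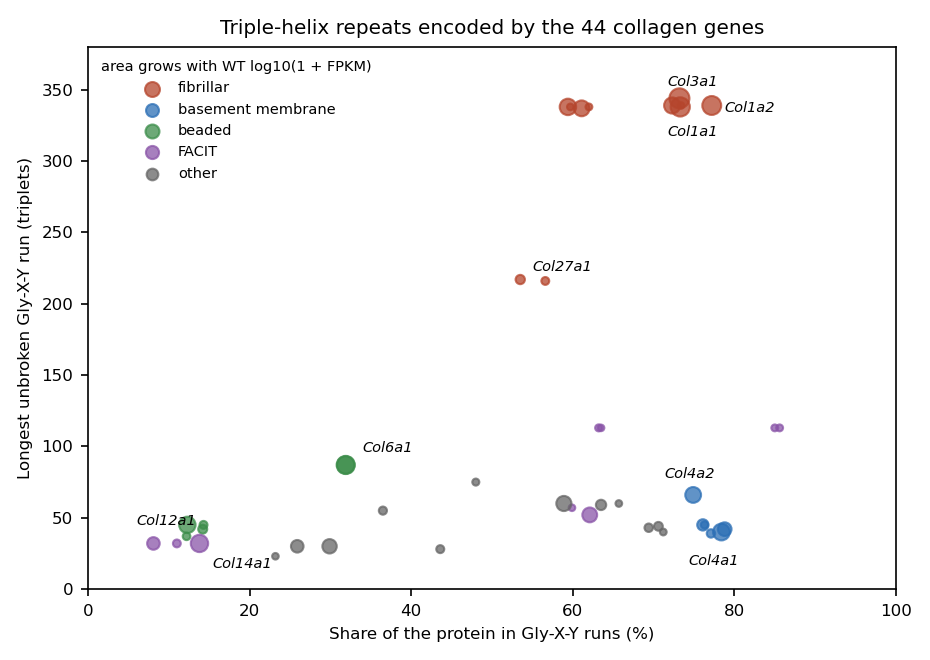
Longest unbroken Gly-X-Y run (triplets, y axis) against the share of the protein in Gly-X-Y runs (percent, x axis) for the 44 collagen genes, coloured by class, with the area of a point growing with the WT level. The 11 fibrillar chains lie at 216 triplets or more and every other chain at 113 or fewer.

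The transcripts of the family spanned several orders of magnitude in WT, and a few genes held most of them. All collagens together made up 2.81% ± 0.058 of the FPKM of a WT library. Of that collagen signal, fibrillar chains held 77.9% ± 0.92, beaded chains 12.97% ± 0.54, FACIT chains 4.29% ± 0.24, basement membrane chains 3.64% ± 0.16 and the remaining types 1.18% ± 0.097. Col3a1, Col1a1 and Col1a2 alone held 73.7% ± 1.02. Col3a1 was the gene with rank 3 among all genes measured, Col1a1 had rank 8 and Col1a2 rank 15.

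The order of the 23 genes with a WT mean of at least 1 FPKM was well separated. For 16 of the 22 neighbouring pairs, the lowest WT library of the upper gene lay above the highest WT library of the lower gene. The 6 pairs that overlapped, and so did not differ beyond their spread, were Col6a2 with Col14a1, Col5a1 with Col6a3, Col5a3 with Col4a2, Col12a1 with Col15a1, Col27a1 with Col6a6, and Col6a6 with Col13a1.

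**Figure D2:**
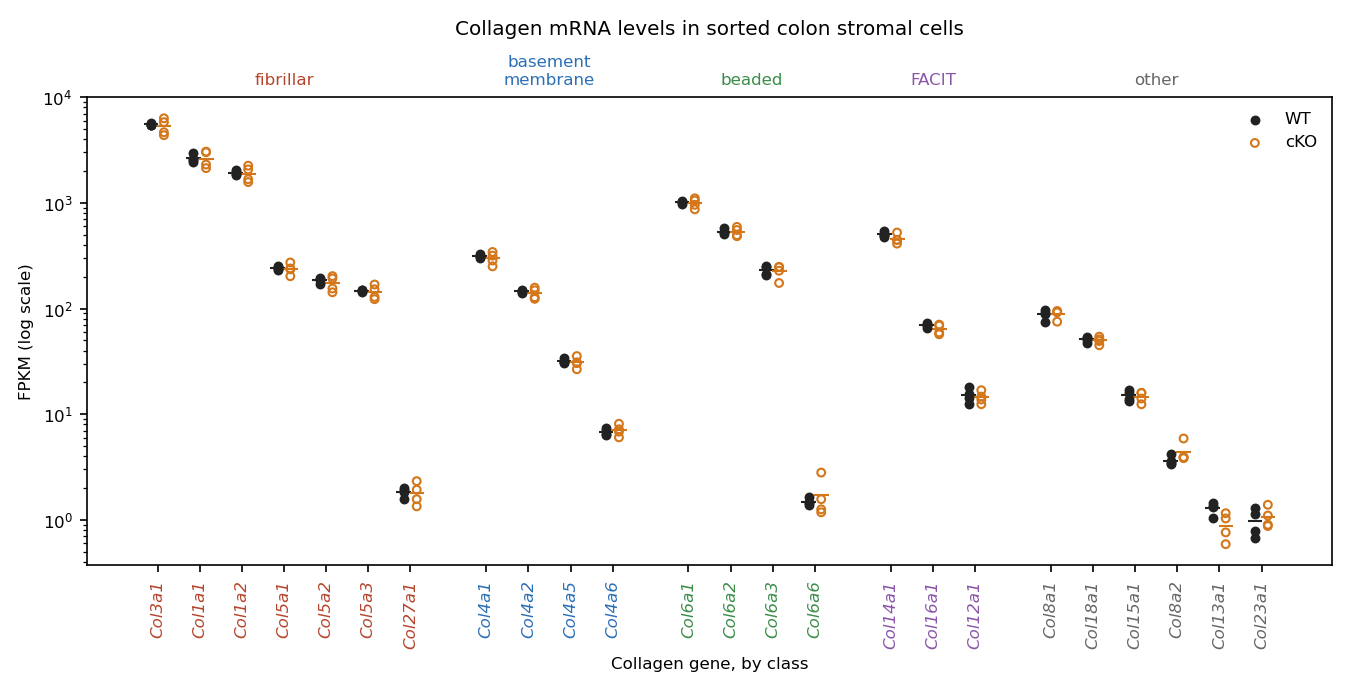
FPKM of the 24 collagen genes with a mean of at least 1 FPKM over all 8 libraries (log scale), grouped by class, with 1 point per library and a bar at each group's mean. WT points are filled and cKO points open, and the groups overlap in every gene, from Col3a1 near 5546 FPKM down to Col23a1 near 0.977 FPKM in WT.

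The remaining 20 genes had a mean below 1 FPKM over all libraries and were not tested. Among them were the cartilage chains Col2a1 (WT mean 0.013 FPKM), Col11a1 (0.033), Col11a2 (0.078), Col9a2 and Col9a3 (0.090 and 0.105), and Col10a1 of the growth plate (0.027). Col9a1 was listed at 0 in every library, and Col26a1 was above 0 in cKO 3 only, at 0.198 FPKM. The kidney and lung basement membrane chains Col4a3 and Col4a4 stood at 0.935 and 0.263 FPKM in WT. Col7a1 of the epidermal anchoring fibrils had a WT mean of 0.159 FPKM and Col17a1 of hemidesmosomes 0.745. The rest were Col24a1, Col6a4, Col6a5, Col19a1, Col20a1, Col22a1, Col25a1 and Col28a1, with WT means from 0.0039 FPKM (Col19a1) to 0.639 FPKM (Col28a1). Of the 44 genes, 37 were above 0 in all 8 libraries.

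In the comparison of cKO with WT, no collagen gene passed the test. A moderated linear model (limma, on log2 of FPKM + 1) was fitted over all 11506 genes with a mean of at least 1 FPKM, and p-values were adjusted over all of them (Benjamini-Hochberg, threshold 0.05). None of the 24 collagen genes tested was called, where 0.00869% of all genes tested (1 gene) were. None had an unadjusted p under 0.05, a level that 5.41% of all genes tested reached, and with no filter on low values 1 of 43 collagen genes did (Col13a1, adjusted p above the threshold). In none did the WT and cKO libraries separate without overlap, which happened in 3.26% of all genes tested. The adjusted p of the collagen genes lay between 0.897 and 0.994.

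The intervals limit how large a difference could have gone unseen, if the spread is the same in both groups, as the fit assumes. For the 12 genes that follow, the median SD of log2 was 0.063 in WT and 0.204 in cKO. Their limits may thus be too narrow. For the 12 genes with a WT mean of at least 100 FPKM, all 95% intervals of the fold between the groups (on the FPKM + 1 scale) lay within 0.786 to 1.19. The means were lower in cKO in 19 of 24 genes, with a median log2 difference of −0.04, where 52.6% of all genes tested had a lower mean and the median was −0.01. After rescaling to a fixed sum of FPKM, which moves all genes up in cKO by a like amount, 14 of 24 were lower (median −0.0095), beside 39.4% of all genes tested (median 0.025). After quantile normalization 14 of 24 were lower (median −0.0067), beside 54.5% of all genes. With the epithelial markers as a covariate it was 14 of 24 (median −0.034) beside 50.2%, and without cKO 1 it was 12 of 23 (median −0.0016) beside 50.3%. Relative to all genes, the collagen median was thus about as low after fixed-sum rescaling as before it, and near that of all genes after quantile normalization or without cKO 1. In bulk RNA, fewer cells of a type and less RNA per cell cannot be told apart.

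**Figure D3:**
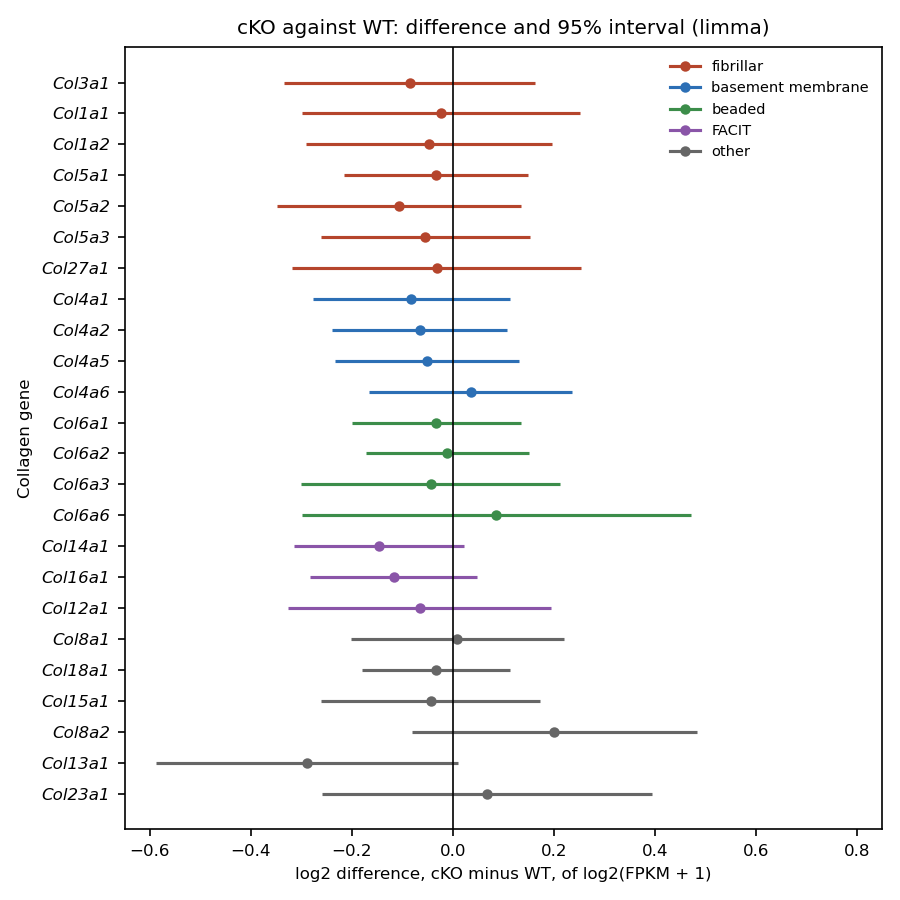
Log2 difference (cKO minus WT, on the log2 of FPKM + 1 scale) of the 24 collagen genes tested, with 95% intervals from limma, coloured by class. Every interval includes 0, and the widest belong to genes of low level such as Col6a6 and Col13a1.

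Among the fibrillar chains, Col3a1 forms a homotrimer and is abundant in distensible organs. Its level was 5750.4, 5458, 5508 and 5470.1 FPKM in WT and 4657, 5804, 6312 and 4369 FPKM in cKO. The WT libraries lay close together, cKO 1 and cKO 4 lay below all of them, and cKO 2 and cKO 3 above. The means were 5546 ± 138 and 5286 ± 923 FPKM, a log2 difference of −0.09 ± 0.11 (SE; 95% interval −0.34 to 0.16; adjusted p = 0.965).

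Col1a1 and Col1a2 build type I collagen, the bulk of most fibrils. Col1a1 measured 2598, 2447, 2556 and 2972 FPKM in WT against 2304, 3016, 3053 and 2130.2 FPKM in cKO. Here too cKO 1 and cKO 4 were the lowest of the 8 libraries and cKO 2 and cKO 3 the highest, with a log2 difference of −0.02 ± 0.12 (SE; 95% interval −0.30 to 0.25; adjusted p = 0.994). Col1a2 followed at 1951, 1888, 1837 and 2064 FPKM in WT and 1673, 2073, 2247 and 1572 FPKM in cKO, with the same libraries at either end. Its difference was −0.05 ± 0.11 (SE; 95% interval −0.29 to 0.20; adjusted p = 0.983) on the log2 scale.

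The type V chains Col5a1, Col5a2 and Col5a3, which start fibrils and set their width, were far below type I. Their WT means were 242 ± 9.11, 185 ± 10.6 and 147 ± 3.83 FPKM, against 237 ± 28.8, 173 ± 29.0 and 143 ± 21.3 FPKM in cKO. Col27a1, a fibrillar chain known from cartilage, had 1.83 ± 0.180 and 1.79 ± 0.430 FPKM. The means of all 7 fibrillar chains tested were lower in cKO, and none passed the test. After quantile normalization or fixed-sum rescaling 5 of 7 were lower. It was 4 of 7 without cKO 1 and 3 of 7 without cKO 4, where their median turned to 0.00035.

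Of the basement membrane chains, Col4a1 and Col4a2 make the network found under nearly every epithelium and around vessels. Col4a1 stood at 313, 327, 315 and 302 FPKM in WT and at 251, 343, 317 and 284 FPKM in cKO. Col4a2 stood at 143, 149, 148 and 141 FPKM in WT and at 124, 157, 149 and 128 FPKM in cKO. In both genes cKO 1 and cKO 4 were below every WT library. The differences were −0.08 ± 0.09 (SE; 95% interval −0.28 to 0.11; adjusted p = 0.951) for Col4a1 and −0.07 ± 0.08 (SE; 95% interval −0.24 to 0.11; adjusted p = 0.957) for Col4a2, on the log2 scale.

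Col4a5 and Col4a6 form a separate network, known around smooth muscle among other places. For Col4a5 the 4 WT values were 34.1, 31.4, 30.8 and 31.2 FPKM, and the cKO values 30.9, 26.6, 35.5 and 30.4 FPKM bracketed them on both sides. Its log2 difference was −0.05 ± 0.08 (SE). Col4a6 had 6.82 ± 0.455 FPKM in WT and 7.04 ± 0.860 FPKM in cKO.

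Among the beaded chains, Col6a1, Col6a2 and Col6a3 make the microfibrils that tie cells to the matrix around them. Col6a1 gave 1022, 1012, 1051 and 973 FPKM in WT and 868, 1053, 1104 and 958 FPKM in cKO. Col6a2 gave 525, 528, 572 and 508 FPKM in WT and 494, 553, 592 and 484 FPKM in cKO. In both, cKO 1 and cKO 4 were again below every WT library and cKO 3 was above every one.

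Col6a3 was the most variable of these chains within WT, at 209, 245, 212 and 253 FPKM, and measured 174, 246, 248 and 228 FPKM in cKO. The library cKO 1 was below the range of WT and the other 3 cKO libraries were within it. The log2 differences of Col6a1, Col6a2 and Col6a3 were −0.03 ± 0.07, −0.01 ± 0.07 and −0.04 ± 0.11 (SE), and the sign of each turned under quantile normalization. Col6a6, an alternative partner to Col6a3, had 1.48 ± 0.112 FPKM in WT and 1.70 ± 0.752 FPKM in cKO, where cKO 4 alone reached 2.80 FPKM.

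The FACIT class was led by Col14a1, which binds fibrils of type I and limits their growth. Its values were 500.0, 542, 474 and 499.9 FPKM in WT and 411, 446, 524 and 445 FPKM in cKO. Among the cKO libraries, cKO 3 alone reached the WT range and the other 3 lay below it. Col14a1 had the most negative log2 difference of the genes above 100 FPKM, −0.15 ± 0.08 (SE; 95% interval −0.32 to 0.02; limma, unadjusted p = 0.082, adjusted p = 0.897). Its mean was lower in cKO under all 18 alternative settings of the fit, and it passed the test under none.

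Col16a1, which links fibrils to neighbouring matrix, had 69.3, 69.4, 72.3 and 65.7 FPKM in WT and 59.3, 70.4, 69.0 and 57.0 FPKM in cKO, a log2 difference of −0.12 ± 0.07 (SE; 95% interval −0.28 to 0.05; adjusted p = 0.92). Col12a1, a large FACIT chain of dense connective tissue, had 15.6, 14.4, 18.2 and 12.6 FPKM in WT and 14.7, 12.4, 16.8 and 13.8 FPKM in cKO. The Col12a1 groups overlapped almost fully, with a log2 difference of −0.07 ± 0.12 (SE).

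The remaining types were led by Col8a1, a short chain of a network collagen found around vessels. It was at 90.6, 89.2, 97.4 and 75.3 FPKM in WT and 92.7, 94.7, 92.2 and 75.1 FPKM in cKO. Its 2 lowest libraries were WT 4 and cKO 4, and the log2 difference was 0.01 ± 0.09 (SE). The partner chain Col8a2 was low, at 4.16, 3.63, 3.35 and 3.43 FPKM in WT and 3.91, 3.83, 3.92 and 5.89 FPKM in cKO. Its log2 difference of 0.20 ± 0.13 (SE; adjusted p = 0.915 in limma), the highest in the family, came with cKO 4 far above the others and was 0.078 without that library.

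Col18a1 and Col15a1 are multiplexins of the basement membrane zone, and Col18a1 releases endostatin from its end. Col18a1 had 47.6, 52.5, 53.2 and 50.5 FPKM in WT and 44.9, 49.2, 51.0 and 54.2 FPKM in cKO. Col15a1 had 14.1, 13.4, 16.9 and 15.8 FPKM in WT and 12.4, 14.1, 15.9 and 15.9 FPKM in cKO. Neither gene separated the groups, with log2 differences of −0.03 ± 0.07 and −0.04 ± 0.10 (SE).

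The transmembrane chains were close to the limit of the test. Col13a1, a chain of cell adhesion sites, had 1.33, 1.04, 1.44 and 1.35 FPKM in WT and 0.760, 1.03, 0.589 and 1.16 FPKM in cKO. WT 2 lay inside the cKO range, and the 3 other WT libraries lay above every cKO library. This was the most negative log2 difference of the family, −0.29 ± 0.13 (SE; 95% interval −0.59 to 0.009; limma, unadjusted p = 0.056, adjusted p = 0.897). Col23a1 had 0.977 ± 0.296 FPKM in WT and 1.06 ± 0.238 FPKM in cKO.

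The scatter among libraries was larger in cKO than in WT for most of the family. The SD of log2 values was larger in cKO in 22 of the 24 genes tested (all but Col12a1 and Col23a1), where 59.5% of all genes tested had a larger SD in cKO. The median SD of the collagen genes was 0.076 in WT and 0.174 in cKO, against 0.111 and 0.130 over all genes tested. Among genes with a WT mean of at least 100 FPKM, all 12 collagens had the larger SD in cKO (median 0.063 in WT and 0.204 in cKO), where 72.9% of the 828 genes at that level did (0.065 and 0.105). With any 1 of the 8 libraries left out, 20 to 23 of 24 collagen genes had the larger SD in cKO. Without cKO 1 it was 20 of 24, beside 48.7% of all genes tested. The difference in spread was not tested, since the genes of a library are not independent of each other.

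The scatter had the same shape in most abundant members. The cKO libraries set together here were picked after the values were seen. Of the 12 genes with a WT mean of at least 100 FPKM, 6 had their lowest of 8 values in cKO 1 and 6 in cKO 4, and 10 had their highest in cKO 2 or cKO 3. Among all 828 genes at that level, 55% had their lowest value in cKO 1 or cKO 4 and 20.5% their highest in cKO 2 or cKO 3. The 12 genes lay at a median of 84.5% of their WT mean in cKO 1 (75.9% to 99.1%) and 87.7% in cKO 4 (77.1% to 99.2%). In cKO 2 the median was 105.9% and in cKO 3 it was 109.3%. In 11 collagen genes both cKO 1 and cKO 4 were below every WT library, a pattern found in 8.4% of all genes tested. They were Col3a1, Col1a1, Col1a2, Col6a1, Col6a2, Col14a1, Col4a1, Col5a2, Col5a3, Col4a2 and Col16a1. All but Col16a1 had a WT mean of at least 100 FPKM, and the share among the 828 genes at that level was not taken. Of those 828 genes, 35.4% had their lowest value in cKO 4, against 13.6% of all genes tested.

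**Figure D4:**
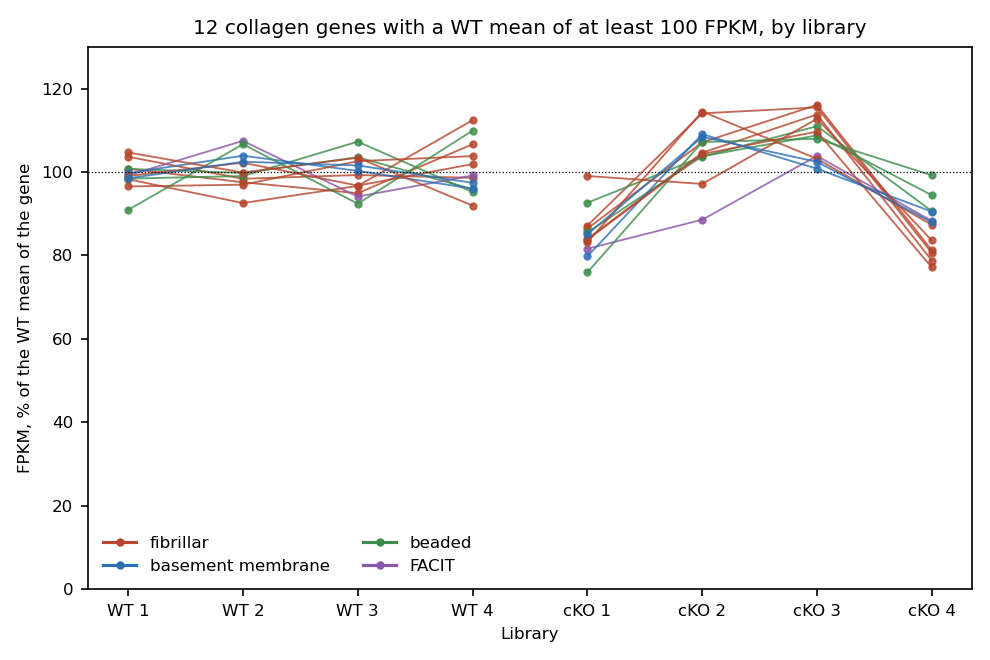
FPKM of the 12 collagen genes with a WT mean of at least 100 FPKM, as a percent of each gene's WT mean (y axis), in the 8 libraries (x axis), with 1 line per gene and class colours. Lines only link values of the same gene, and all 12 genes lie below 100% in cKO 1 and in cKO 4.

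As a share of all FPKM, collagens came to 2.42% in cKO 1, 3.05% in cKO 2, 3.21% in cKO 3 and 2.44% in cKO 4, against 2.74% to 2.87% in WT. The mean in cKO was 2.78% ± 0.41. Markers of several other cell types differed between these libraries too.

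Summed lymphoid markers (9 genes) ran in the opposite order to the collagen share among the cKO libraries, at 176, 85.2, 38.3 and 89.3 FPKM in cKO 1 to cKO 4, against 50.1 to 89.6 FPKM in WT. Summed smooth muscle markers (10 genes) were 139 FPKM in cKO 1 and 133 FPKM in cKO 4, above the 103 to 113 FPKM of WT, and 93.2 FPKM in cKO 2 and 122 FPKM in cKO 3. Of these, Acta2, the actin of contractile cells, was at 40.1, 13.7, 30.9 and 37.8 FPKM in cKO and 21.9 to 24.1 FPKM in WT. Tagln and Myh11 were likewise higher in cKO 1 and cKO 4 than in cKO 2 and cKO 3. Des, Actg2, Cnn1, Synm, Smtn, Lmod1 and Hhip did not have this order. Cnn1 was at 1.33, 1.39, 1.53 and 0.992 FPKM in cKO, and Smtn at 47.4, 43.4, 46.5 and 43.5 FPKM. Both sums were thus higher in cKO 1 and cKO 4, where collagens were low, than in cKO 2 and cKO 3, though not every marker in them was.

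Other sets set cKO 1 apart from cKO 4. The summed epithelial markers were at their highest in cKO 1 (1153 FPKM) and at their lowest in cKO 4 (57.3 FPKM). Summed myeloid markers were 173 FPKM in cKO 1 and 83.5 FPKM in cKO 4, against 75.6 to 106 FPKM in WT. Mesothelial markers summed to 108 FPKM in cKO 1 and 8.67 FPKM in cKO 4, against 11 to 18.4 FPKM in WT. Most of that sum in cKO 1 was Krt19, which is also in the epithelial set. Krt19 was at 98.2 FPKM in cKO 1 and 3.80 FPKM in cKO 4, against 6.39 to 13.5 FPKM in WT. Summed blood endothelial markers were higher in all cKO libraries (10.8 to 27.1 FPKM) than in WT (6.50 to 10.3 FPKM), with 4 of the 10 under 1 FPKM in every library. Taken singly, only Emcn did not overlap between the groups (0.0445 to 0.253 FPKM in WT, 0.264 to 0.943 FPKM in cKO). Plvap, the highest of them, was at 2.96 to 5.08 FPKM in WT and 4.37 to 13.1 FPKM in cKO. Lymphatic endothelial markers were also higher in all cKO libraries (6.18 to 15.3 FPKM against 0.712 to 5.47 FPKM), with Prox1, Flt4 and Reln under 1 FPKM in every library. Most of the sum in cKO was Ccl21a, at 4.81 to 11.9 FPKM, against 0.00033, 0.0017, 4.49 and 0.00061 FPKM in WT. Lyve1 and Prox1 overlapped between the groups. Mmrn1 (0.127 to 0.404 FPKM in WT, 0.524 to 1.40 FPKM in cKO), Flt4 and Reln did not, at low levels. Groups did not overlap in 3.26% of all genes tested, which leaves out genes with a mean below 1 FPKM. Pericyte markers summed to 15.6 to 21.1 FPKM in WT and 16.5 to 21.6 FPKM in cKO, and glial markers to 1.21 to 2.05 and 1.84 to 3.68 FPKM. No marker of these 9 sets was at 0 in all libraries. Pdgfra was at 126 FPKM in cKO 1 and 163 FPKM in cKO 4. The part of other cells in the collagen values was not tested.

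The makeup of the collagen pool was alike in the groups to within its spread. In cKO the fibrillar share was 77.8% ± 1.71, the beaded share 13.3% ± 1.00, the FACIT share 4.07% ± 0.38, the basement membrane share 3.61% ± 0.29 and the share of the remaining types 1.23% ± 0.14. Each differed from its WT value by less than 1 SD of either group. Col3a1, Col1a1 and Col1a2 together held 73.6% ± 1.76 in cKO.

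Chains of the same trimer are translated from separate genes, so their mRNA ratio shows whether they were kept in proportion. Of 12 pairs of chains known to share a trimer or a fibril, 9 had both chains at a mean of at least 1 FPKM. Col1a1 to Col1a2 stood at 1.36 ± 0.064 in WT and 1.39 ± 0.047 in cKO, per length of transcript, where the trimer holds a pair of Col1a1 chains for each Col1a2 chain. Over the 8 libraries the ratio had a coefficient of variation of 3.85%, while Col1a1 itself varied by 13.2% and Col1a2 by 11.5%. Col4a1 to Col4a2 stood at 2.16 ± 0.034 and 2.14 ± 0.084 (coefficient of variation 2.81%, against 9.21% and 8.0% for the genes). Col6a1 to Col6a2 stood at 1.90 ± 0.048 and 1.88 ± 0.094 (3.72%, against 7.18% and 7.15%). Ratios of chains that share neither a trimer nor a fibril were not taken, so a small variation is not shown to be particular to partners.

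Other pairs were looser. Col6a3 was at 0.227 ± 0.028 of Col6a1 in WT and 0.224 ± 0.017 in cKO, and the type VI molecule takes up equal parts of the main chains. Col3a1 to Col1a1, which share fibrils but no trimer, stood at 2.11 ± 0.18 and 2.02 ± 0.064, and Col5a1 to Col5a2 at 1.31 ± 0.12 and 1.38 ± 0.14. Col5a3 to Col5a1 stood at 0.610 ± 0.030 and 0.606 ± 0.091, and Col4a5 to Col4a6 at 4.69 ± 0.33 and 4.41 ± 0.52. Col8a1 to Col8a2 stood at 24.4 ± 3.40 and 21.2 ± 5.64, with cKO 4 alone at 12.8. No ratio passed a two-sided exact permutation test between the groups (70 arrangements, smallest p possible 0.0286). The p ran from 0.371 to 0.886 over the 9 pairs and the adjusted p from 0.845 to 0.886.

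For 4 pairs the chains also moved together from library to library, 2 of which passed within groups as well. Pairs of chains that share neither a trimer nor a fibril were not tested. Most abundant collagens shared a pattern over the cKO libraries, so r does not show that partners move together more than other chains. Over all 8 libraries, Col4a1 and Col4a2 had r = 0.96 (exact permutation p = 2.5e-05, the smallest these permutations can give; adjusted p = 0.00022 over 9 pairs) and rho = 1.00 (p = 5.0e-05, adjusted p = 0.00045). For Col1a1 and Col1a2, r was 0.96 (exact permutation p = 0.00017, adjusted p = 0.00078) and rho 0.98 (p = 0.00040, adjusted p = 0.0018). Col6a1 and Col6a2 had r = 0.86 (exact permutation p = 0.0037, adjusted p = 0.0083) and rho = 0.93 (p = 0.0022, adjusted p = 0.0050). Without the 2 libraries farthest from the median, r was 0.95, 0.93 and 0.95 for these pairs.

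Col3a1 and Col1a1 had r = 0.87 (exact permutation p = 0.0021, adjusted p = 0.0062) and rho = 0.93 (p = 0.0022, adjusted p = 0.0050). That r was 0.59 without cKO 1 and cKO 4, so the relation rests on those libraries. The other 5 pairs did not pass, with r from −0.50 for Col8a1 and Col8a2 to 0.68 for Col5a1 and Col5a2. The points of a library share its scaling, and after rescaling every library to a fixed sum of FPKM r was 0.96 for both Col4a1 with Col4a2 and Col1a1 with Col1a2. With deviations from the group means, permuted within groups (exact), the adjusted p was 0.039 for each of these 2 pairs. It was 0.12 for Col6a1 with Col6a2 (r = 0.87) and 0.21 for Col3a1 with Col1a1 (r = 0.88), so that neither passed.

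**Figure D5:**
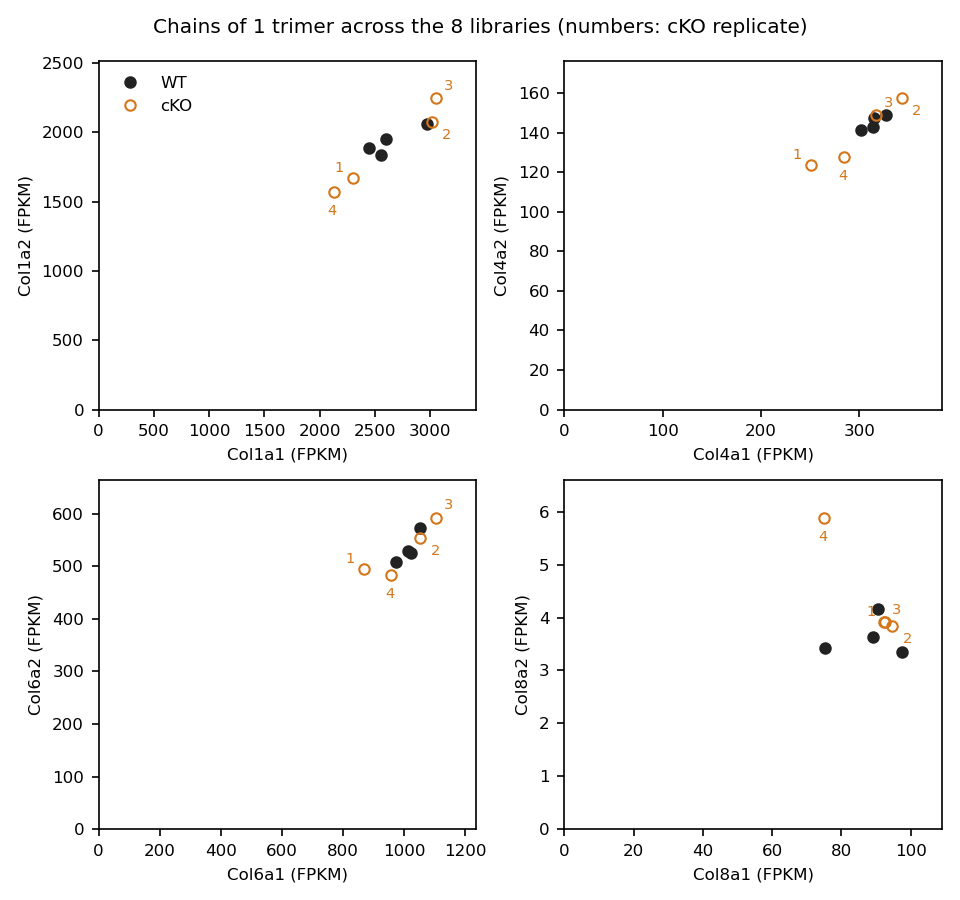
FPKM of 4 pairs of chains that join in a trimer, with 1 point per library, filled for WT and open with the replicate number for cKO, and all axes starting at 0. In 3 pairs the points follow a line, with cKO 1 and cKO 4 at its lower end, and in the pair Col8a1 and Col8a2 the library cKO 4 stands off at 5.89 FPKM of Col8a2.

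Several of these pairs are neighbours in the genome. Col4a1 and Col4a2 lie head to head on chromosome 8 (11198423 to 11312826 and 11312805 to 11449287) with annotated starts that overlap, and whether strand was used in counting is not given in the sources used here. Col4a3 and Col4a4 lie head to head 72 bases apart on chromosome 1, and Col4a5 and Col4a6 1309 bases apart on chromosome X. Col6a1 and Col6a2 lie on the same strand of chromosome 10, 85162 bases apart, and Col3a1 and Col5a2 tail to tail 24615 bases apart on chromosome 1. Col1a1 and Col1a2 are on chromosomes 11 and 6, so only 1 of the 2 pairs with the highest r was made of neighbours. Col4a5 and Col4a6, head to head as well, had r = 0.42.

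Promoter windows (250 bases before to 50 after the RefSeq start, GRCm38.p6) were matched for 35 collagen genes, 20 of them tested. A gene with several windows counted if any of them held the match. On either strand, CCAAT was found in 7 of these 20 genes, against 42.7% of the 8754 tested genes with a window, and GGGCGG in 15 of 20 against 70.1%. TATAAA was found in 2 (Col3a1 and Col13a1) against 8.8%, and TGANTCA in 1 (Col6a1) against 6.3%. These are matches of letters and not sites shown to be bound.

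The machinery that makes, cuts, links and removes collagen was measured alongside. Of 102 genes in 8 lists, 83 were tested and none was called, and 4 had an unadjusted p under 0.05 (limma), a level that 5.41% of all genes tested reached. The mean was lower in cKO in 59 of 83 (71.1%), beside 52.6% of all genes tested. It was lower in 56.6% beside 39.4% of all genes after fixed-sum rescaling, and in 60.2% beside 54.5% after quantile normalization. By list, the means were lower in 13 of 20 hydroxylases and chaperones, 6 of 7 genes of propeptide processing, 4 of 5 crosslinking enzymes, 8 of 12 fibril-binding proteins, 9 of 12 basement membrane partners, 5 of 7 receptors, 5 of 7 proteases and inhibitors and 9 of 13 upstream factors.

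The smallest p belonged to Colgalt2, which adds galactose to hydroxylysine of collagens. It was at 11.16, 11.02, 11.07 and 10.12 FPKM in WT and at 7.91, 9.13, 9.86 and 8.53 FPKM in cKO, and the groups did not overlap. Its log2 difference was −0.27 ± 0.07 (SE; limma, unadjusted p = 0.0053, adjusted p = 0.897). P4ha1, a prolyl hydroxylase that stabilises the helix, had 61.9 ± 2.52 FPKM in WT and 57.9 ± 2.96 FPKM in cKO.

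Loxl2, which oxidises lysines for crosslinks and acts on type IV collagen, had 79.2, 90.7, 89.3 and 93.2 FPKM in WT and 56.4, 67.0, 79.6 and 76.6 FPKM in cKO. WT 1 and cKO 3 overlapped by a narrow margin, and the log2 difference was −0.34 ± 0.10 (SE; limma, unadjusted p = 0.0086, adjusted p = 0.897). Nid1, which bridges laminin and type IV collagen, had 450.5 ± 16.8 FPKM in WT and 394 ± 45.6 FPKM in cKO (limma, unadjusted p = 0.030). Colgalt2, Loxl2 and Nid1 each kept their sign in all 18 alternative settings and missed the adjusted threshold at 0.897.

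Timp2, an inhibitor of matrix metalloproteinases, also did not overlap between the groups, at 969 ± 20.4 FPKM in WT and 905 ± 31.0 FPKM in cKO (limma, unadjusted p = 0.059). Such a separation, as in Colgalt2 and Timp2, was found in 3.26% of all genes tested. Pcolce, which speeds the trimming of fibrillar procollagen, had 883 ± 32.4 and 837 ± 61.5 FPKM, and the trimming enzyme Bmp1 had 142 ± 2.15 and 136 ± 6.91 FPKM. The collagen receptor Ddr2 of fibroblasts had 87.0 ± 3.07 and 81.1 ± 8.79 FPKM. 

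The pathway genes named by smallest p included 3 with a higher mean in cKO, and none passed the test. Kera, a small proteoglycan that binds fibrils, had 2.24 ± 0.948 FPKM in WT and 3.32 ± 1.60 FPKM in cKO, the smallest p of its list (limma, unadjusted p = 0.18). The collagen receptor Ddr1 had 8.26 ± 0.490 and 8.99 ± 0.867 FPKM (unadjusted p = 0.20). Among upstream factors, Smad4, which carries signals of the TGF-beta family to the nucleus, had the smallest p (0.25), with 6.06 ± 0.565 and 6.68 ± 0.861 FPKM. In all 3 the groups overlapped. Tgfb3, a growth factor that induces matrix genes, had 64.1 ± 3.22 and 60.2 ± 8.43 FPKM, with cKO 1 alone at 47.6 FPKM.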

How the data were processed

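Each of the 8 libraries (4 WT, 4 cKO) has 1 deposited table of FPKM values for the same 24346 gene symbols. The authors made them from SMART-Seq full-length cDNA, per the labels' protocols. The submitters' processing notes name the aligners Bowtie2 2.3.5.1 and TopHat2 2.1.1 with the mm10 build, Cufflinks 2.2.1 with Cuffdiff, and SAMtools 0.1.18. For the annotation and for any scaling between libraries, the sources used here give nothing. FPKM of a gene depends on what all other genes take, so alternative scalings were run. Counts were not analysed here, and absolute depth was not derived.

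Groups came from the genotype labels. Genes with a mean of at least 1 FPKM entered a limma fit (version 3.58.1, R 4.3.3; lmFit, eBayes with trend) of log2 of FPKM + 1, which understates differences of low genes. The procedure was checked on simulated data, with genes drawn independently and the same SD in both groups. That check does not cover the unequal spread and shared patterns of the collagen genes. Ratios and correlations of chains used exact permutation tests in Python 3.11.15 with scipy 1.17.1. Alternatives were pseudocounts of 0.1 and 0.25, no filter or a minimum of 5 FPKM, 3 scalings, no trend, a replicate block, an epithelial covariate and leaving out each library.

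Members and lists were chosen with earlier results of these data known. Values by library are given for the 3 highest genes of each class in WT, and pathway genes by smallest unadjusted p, up to 3 per list. A gene that this rule names is not reported here. Col13a1, Col8a2 and the count of genes with a larger SD were added after values were seen. Coding sequences and positions are those of GENCODE M21 (GRCm38), with Gly-X-Y runs read by Biopython 1.88 from the coding sequences.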

Additional observations from a re-analysis of the deposited data

Results flagged for a closer look

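In 6 of 76 sets of 4 values, the highest or lowest library lay apart from the other 3 by Dixon's criterion, which chance alone passes in about 1 of 20 sets. Of these, 3 belong to type VIII collagen in cKO 4. Col8a1 was at 75.0637 FPKM there, against 92.2 to 94.7 FPKM in the other cKO libraries, and WT 4 was nearly as low at 75.3 FPKM. Col8a2 was at 5.88683 FPKM in cKO 4, against 3.83 to 3.92 FPKM. The ratio of these chains, which rests on the same values, was 12.7511 in cKO 4 and 23.6 to 24.7 in the others.

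The other 3 were in WT. Col3a1 was at 5750.4 FPKM in WT 1, against 5458 to 5508 FPKM in the other WT libraries. The ratio of Col4a5 to Col4a6 was 4.19239 in WT 3, against 4.80 to 4.92. The FACIT share of collagen FPKM was 4.655% in WT 2, against 4.13% to 4.22%, and Col14a1 had its highest WT value, 542 FPKM, in that library.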

How the results depend on the processing

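No collagen gene was called in the main fit or under any of 18 alternatives, the replicate block included (0 called, median log2 difference −0.0435). The lowest adjusted p in any of them was 0.74. Replicate numbers were not taken to pair mice, since deviations of same-numbered libraries correlated at 0.091, 0.034, 0.019 and 0.018. Mean differences were small against their errors, and 17 of 24 genes changed sign under at least 1 alternative, by at most 0.09 on the log2 scale after the change. Col14a1, Col4a1, Col5a2, Col4a2, Col16a1, Col8a2 and Col13a1 kept their sign, but some rested on 1 library. Without cKO 1 the log2 difference was −0.0016 for Col4a1 and −0.011 for Col4a2, and without cKO 4 it was −0.018 for Col5a2, −0.065 for Col16a1 and 0.078 for Col8a2. The number of genes lower in cKO ranged from 12 (without cKO 1) to 20 with 1 library left out. The share of each class moved by less than its SD. A log2 difference is read here relative to a library's other genes, and depth was known only as a ratio between libraries.

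Signs turned after quantile normalization for Col1a1 (0.032), Col5a1 (0.018), Col6a1 (0.049), Col6a2 (0.069) and Col6a3 (0.00045). After fixed-sum rescaling they turned for Col1a1 (0.011), Col5a1 (0.0012), Col6a1 (0.0029), Col6a2 (0.024) and Col18a1 (0.0015), while the median of all genes tested went from −0.0065 to 0.025, above each of these values. With the epithelial covariate they turned for Col6a1 (0.013), Col6a2 (0.0048), Col6a3 (0.040), Col8a1 (−0.041), Col27a1 (0.0093), Col18a1 (0.033) and Col15a1 (0.052). The cause was not tested for the quantile and covariate settings. With 1 library left out, log2 differences ranged from −0.177 to 0.00035 for Col3a1, −0.103 to 0.070 for Col1a1, −0.135 to 0.036 for Col1a2, −0.084 to 0.032 for Col6a1, −0.065 to 0.032 for Col6a2, −0.097 to 0.072 for Col6a3, −0.064 to 0.086 for Col8a1, −0.074 to 0.015 for Col18a1, −0.118 to 0.016 for Col4a5, −0.145 to 0.020 for Col12a1 and −0.094 to 0.026 for Col15a1.

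Log2 ratio differences then ranged from −0.0011 to 0.049 for Col1a1 to Col1a2, −0.106 to 0.057 for Col5a3 to Col5a1, −0.035 to 0.0090 for Col4a1 to Col4a2, −0.048 to 0.0098 for Col6a1 to Col6a2 and −0.065 to 0.056 for Col6a3 to Col6a1. With the replicate block the smallest exact p possible was 0.125, so that no ratio could pass. Without the 2 farthest libraries r was −0.311 for Col5a1 and Col5a2, −0.177 for Col5a3 and Col5a1, and 0.595 for Col3a1 and Col1a1, which then missed the threshold. Over deviations from group means, permuted within groups, r was 0.868 for Col6a1 and Col6a2 and 0.881 for Col3a1 and Col1a1, both missing the threshold (adjusted p = 0.12 and 0.21).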
